A study of Homo sapiens with 2 samples.

Results

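The 33 genes described here encode the route from glucose to pyruvate, lactate and acetyl-CoA. They are the glucose transporters SLC2A1 and SLC2A3, the enzymes of glycolysis and their PFKFB regulators, the lactate dehydrogenases and lactate transporters, and subunits, kinases and a phosphatase of the pyruvate dehydrogenase complex. They were taken from a list of symbols, and all 33 were found among the 28303 genes with a deposited value. HGC27 is an established human gastric cancer cell line. Its cells, grown in RPMI-1640 with fetal bovine serum, were transfected with Turbofect, either with the pcDNA3.1-control plasmid or with pcDNA3.1-linc01133, which carries the long non-coding RNA LINC01133 (the LINC01133 library below), and were harvested at 48 h. Poly(A) RNA of each was sequenced as 1 library, so each group held 1 library, no difference below has a replicate check, and no p-value is given. The expression was transient and from a plasmid, and the labels give no share of transfected cells.

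Glycolysis splits glucose into a pair of pyruvate molecules in 10 enzymatic steps. Pyruvate is then either reduced to lactate by lactate dehydrogenase and exported through monocarboxylate transporters, or carried into mitochondria and oxidised by the pyruvate dehydrogenase complex, which the PDK kinases switch off and the PDP phosphatases switch on. Tumour cells often express glycolytic enzymes at high levels, and many of these genes are known targets of the hypoxia-inducible factors and of MYC.

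Levels are given as FPKM, fragments per kilobase of exon, scaled to the number of counted fragments, so they can be compared between genes. Counted fragments came to 15666629 for the control and 16302581 for the LINC01133 library. Log2 ratios set the LINC01133 library over the control after 1 is added to each FPKM, so differences of low genes are understated. A range in brackets after a ratio is its exact 95% interval and covers counting error only; 9 of the 33 genes have none, because their values were not whole numbers of fragments at the exon length used here (HK1, GPI, PFKM, PFKFB3, ALDOA, PGK1, ENO1, PDK3 and SLC2A1). LINC01133 itself stood at 0.0809 FPKM in the control and at 1.44 after transfection of its plasmid, a ratio of 17.8 (6.66 to 67.0). The cells showed few gastric epithelial markers: of 11 listed with a value, CDH1 had FPKM values of 0.0207 and 0.00993, KRT18, TFF2 and MUC5AC were listed at 0 in both libraries, and the 11 summed to 2.08 and 2.01. Of 12 listed markers of blood, endothelial and fibroblast cells, the endothelial CDH5 was at 0 in both libraries, the sum was 298 (control) and 346 (LINC01133 library), and the collagen gene COL1A1 made up 209 and 162 of it. Of the 8 genes on that list with a mean FPKM of at least 1, 3 had a log2 ratio above 0 and 5 below 0. Of all 11945 genes with such a mean, 6619 were above 0 and 5326 below. The 3 listed markers above 0 were the matrix genes POSTN (33.7 and 98.8), LUM (30.5 and 56.6) and DCN (15.1 and 21.1). Among the 5 markers below 0 were ACTA2 (1.87 and 0.969, a ratio of 0.519, 0.356 to 0.749) and the almost equal PDGFRB (2.22 and 2.21). With the trends on GC content and length described below subtracted, POSTN, LUM and DCN were at 0.68, -0.19 and -0.52. The part of cell identity in the differences below was not tested.

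Upstream sequence is shown for 3 genes to set their letters beside their values: the lactate dehydrogenase pair, which encode subunits of the same enzyme but differ in ratio, and PGK1, the lowest gene once trends on transcript GC content and length are subtracted. The 250 bases before the first RefSeq start of each gene (GRCh38.p14) were searched on both strands for ACGTG and GCGTG, the core letters bound by hypoxia-inducible factors. The E-box CACGTG, bound by MYC among others, contains ACGTG. Capitals mark the matches, and each sequence reads 5′ to 3′ along the gene's strand. LDHA lies on the plus strand (chr11:18394313-18394562), LDHB on the minus strand (chr12:21657843-21658092) and PGK1 on the plus strand (chrX:78103998-78104247).
LDHA: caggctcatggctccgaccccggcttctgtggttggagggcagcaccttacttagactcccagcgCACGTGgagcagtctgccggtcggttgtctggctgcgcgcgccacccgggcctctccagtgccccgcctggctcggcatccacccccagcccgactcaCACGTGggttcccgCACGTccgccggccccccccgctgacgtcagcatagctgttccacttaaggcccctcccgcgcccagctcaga
LDHB: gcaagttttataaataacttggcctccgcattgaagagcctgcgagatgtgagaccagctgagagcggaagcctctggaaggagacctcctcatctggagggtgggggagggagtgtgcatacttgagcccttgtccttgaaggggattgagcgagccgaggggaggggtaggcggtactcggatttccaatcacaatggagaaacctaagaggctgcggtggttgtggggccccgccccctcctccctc
PGK1: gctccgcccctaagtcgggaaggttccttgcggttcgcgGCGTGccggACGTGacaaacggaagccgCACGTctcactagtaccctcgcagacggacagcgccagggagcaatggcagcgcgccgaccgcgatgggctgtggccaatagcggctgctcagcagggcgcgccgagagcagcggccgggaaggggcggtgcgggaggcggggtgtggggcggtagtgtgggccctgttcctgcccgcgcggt

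LDHA held 3 separate matches, beginning 185, 87 and 73 bases before the start, of which the first and the second were E-boxes. PGK1 held 3, at 211, 202 and 183 bases, and no E-box, and LDHB held 0. Of the 29 listed genes with a window, 18 (62.1%) held at least 1 match to either core, against 59.1% of 8476 genes past the expression filter and 43.1% of all 27305 genes with a window. The letters ACGTG alone were in 12 of the 29 windows (41.4%), against 24.2% and 18.6%. GCGTG was in 12 (41.4%), against 47.0% and 31.9%, and the E-box in 4 (13.8%), against 9.12% and 6.46%. A match is a run of letters and not a measured binding site. SLC2A3, PFKFB2, SLC16A1 and PDP1 had no window in the table.

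Most enzymes of glycolysis had lower values in the LINC01133 library, while the lactate dehydrogenases, the lactate transporter SLC16A1 and most pyruvate dehydrogenase genes had higher ones. Of the 33 genes, 32 had a mean FPKM of at least 1, and SLC16A3 did not. Of these 32, 20 had a log2 ratio below 0 and 12 above 0 (37.5%, against 55.4% of all 11945 genes past the filter). The median log2 ratio was -0.30, against 0.10 over all genes. Only SLC16A1 was at least 2-fold higher, 1 of 32 against a background of 11.9% of all genes, and 0 were at least 2-fold lower, against 0.444%. At 1.5-fold, 3 were higher (SLC16A1, PDP1 and PDK1; 9.38% against 26.8%) and 5 were lower (SLC2A1, GPI, ALDOA, ALDOC and PDK2; 15.6% against 5.29%). Among the 23 with whole fragments past the filter, the counting interval of the ratio lay above 1 for 10 and below 1 for 10, 43.5% each, against 42.6% and 32.2% of 10942 such genes.

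**Figure D1:**
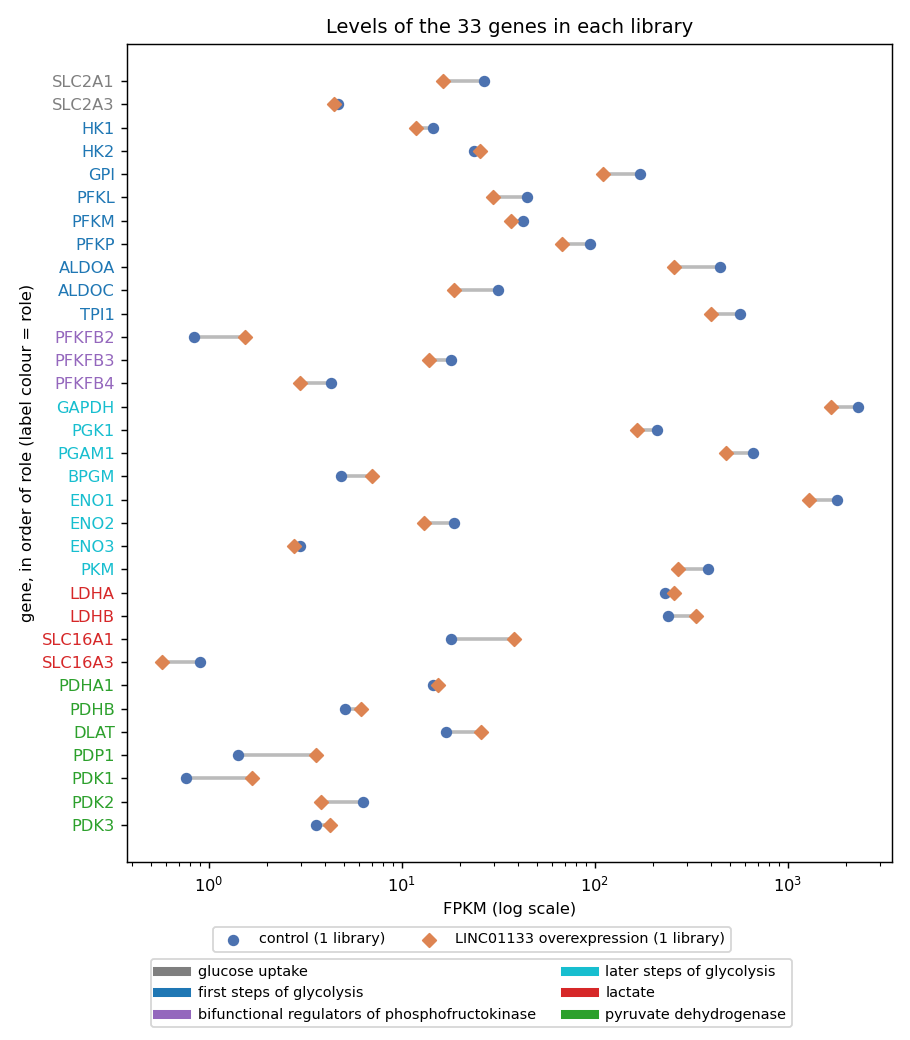
FPKM of each gene in the control (circles) and the LINC01133 library (diamonds) on a log axis, 1 library each, with genes in order of role. The most abundant gene, GAPDH, had 2305 and 1681, and SLC16A1 had 18.0 and 38.3, with the diamond to the right of the circle.

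Both glucose transporters had lower values in the LINC01133 library, SLC2A1 by more. SLC2A1 (GLUT1), the widely expressed basal glucose transporter, stood at 26.6 FPKM in the control and 16.3 in the LINC01133 library, with a ratio of 0.613 and a log2 ratio of -0.67. SLC2A3 (GLUT3), a high-affinity transporter, had 4.69 and 4.47, a ratio of 0.953 (0.834 to 1.09), so its difference lay within counting error. Reads of SLC2A3 and its close paralogue SLC2A14 can be hard to separate, but SLC2A14 had only 0.0229 and 0.0110.

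The first steps of glycolysis invest ATP and split the sugar. There, with a median of -0.49, 8 of 9 genes had a log2 ratio below 0, against 5326 of all 11945 past the filter. The exception was HK2, the inducible hexokinase of many tumours, with 23.7 and 25.4, a ratio of 1.07 (1.01 to 1.13). HK1, the constitutive hexokinase, had 14.5 and 11.8, so the summed hexokinase level was 38.2 and 37.2. GPI, which isomerises glucose 6-phosphate, had 171 and 111, a ratio of 0.650.

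Phosphofructokinase, the committed step, was represented by 3 isoenzymes that were all lower in the LINC01133 library, and their sum was 181 and 134. The platelet form PFKP led, with 94.3 and 67.4, a ratio of 0.715 (0.689 to 0.740). The liver form PFKL had 44.7 and 29.7, a ratio of 0.665 (0.640 to 0.692), and the muscle form PFKM 42.2 and 36.8. PFKM was the least different of the 3, with a log2 ratio of -0.19 against -0.48 for PFKP and -0.57 for PFKL.

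Both aldolases were among the lowest ratios of all the genes described. ALDOA, the main aldolase, had 445 and 256, a ratio of 0.576 and the lowest log2 ratio of the 32 genes, -0.79. Of the exon bases of ALDOA, 42.3% are shared with another gene on the same strand in GENCODE 29, so its value is uncertain. ALDOC, the brain-type form, shares 0 exon bases on its strand, but 10.1% lie under an antisense gene. Its values were 31.4 and 18.6, a ratio of 0.591 (0.543 to 0.643). TPI1, triose phosphate isomerase, had 566 and 401, a ratio of 0.709 (0.695 to 0.723), and its processed copy TPI1P1 25.7 and 16.1.

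The bifunctional PFKFB enzymes make and degrade fructose 2,6-bisphosphate, the strongest activator of phosphofructokinase. PFKFB3, the form in which the kinase activity most outweighs the phosphatase activity, made up 77.9% of their summed FPKM in the control and 75.5% in the LINC01133 library, with levels of 18.0 and 13.9. PFKFB4 had 4.27 and 2.96, a ratio of 0.693 (0.595 to 0.807). PFKFB2 went the other way, with 0.833 and 1.54, a ratio of 1.85 (1.49 to 2.30), from 133 and 256 fragments. Of the exon bases of PFKFB2, 3.09% lie under the antisense gene YOD1 (0.675 and 5.10), so its value is uncertain.

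The later steps, which yield ATP and pyruvate, held the most abundant genes. Of these 8 genes, 7 had a log2 ratio below 0, against 5326 of all 11945 past the filter. GAPDH had 2305 and 1681, a ratio of 0.729 (0.723 to 0.736), from 107634 and 81673 fragments, with 14.2% of its exon bases under an antisense gene. ENO1, the ubiquitous enolase, had 1811 and 1282, a ratio of 0.708. PGAM1, phosphoglycerate mutase, had 662 and 479, a ratio of 0.724 (0.711 to 0.737). PKM, pyruvate kinase, had 386 and 269, a ratio of 0.696 (0.687 to 0.705). These 4, and TPI1 above them, thus lay within a narrow band of ratios, from 0.696 to 0.729.

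PGK1, phosphoglycerate kinase, was lower by less, with 210 and 166, a ratio of 0.793. The neuronal enolase ENO2 had 18.5 and 13.0, a ratio of 0.703 (0.644 to 0.766), while the muscle enolase ENO3 had 2.97 and 2.77, within counting error. Of the exon bases of ENO3, 2.59% lie under the far more abundant antisense gene PFN1 (156 and 90.9), so its value is uncertain. BPGM, which makes the side product 2,3-bisphosphoglycerate, was the single higher gene of this stage, with 4.83 and 7.03, a ratio of 1.46 (1.21 to 1.76). Over the 16 enzymes of the 10 steps together, BPGM and the PFKFB genes left out, summed FPKM was 6828 (control) and 4851 (LINC01133 library), a ratio of 0.710.

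The lactate genes stood on the other side. LDHA, the form that favours lactate production, had 232 and 258, a ratio of 1.11 (1.09 to 1.13). LDHB, the form that favours the return of lactate to pyruvate, had 239 and 333, a ratio of 1.39 (1.36 to 1.43). LDHA and LDHB were thus almost equal in the control, with an LDHA to LDHB ratio of 0.968, and this ratio was 0.774 in the LINC01133 library. Scaled by the trimmed mean of M values, LDHA turned from a log2 ratio of 0.15 to -0.06, and LDHB was at 0.26. In GENCODE 29, 33.4% of the exon bases of LDHB are shared with another gene on its strand.

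SLC16A1 (MCT1), a proton-coupled carrier of lactate and pyruvate, had the highest log2 ratio of the 32 genes, 1.05. Its level was 18.0 (control) and 38.3 (LINC01133 library), a ratio of 2.12 (1.999 to 2.26) from 1502 and 3321 fragments. The gene (ENSG00000155380) lies on the minus strand of chromosome 1, and 0 of its exon bases are shared with another gene on that strand, while 3.29% overlap the antisense gene SLC16A1-AS1. SLC16A3 (MCT4), the export form typical of glycolytic cells, was low, with 0.901 and 0.573, a ratio of 0.636 (0.477 to 0.844) from 127 and 84 fragments. SLC16A1 made up 95.2% of the summed FPKM of this pair in the control and 98.5% in the LINC01133 library.

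The listed subunits of the pyruvate dehydrogenase complex were DLAT, PDHB and PDHA1, with a summed FPKM of 36.5 and 47.3. DLAT, the acetyltransferase core, had 16.95 and 25.7, a ratio of 1.52 (1.41 to 1.63). PDHB, the E1 beta subunit, had 5.07 and 6.18, a ratio of 1.22 (1.06 to 1.40). PDHA1, the E1 alpha subunit that the kinases phosphorylate, had 14.5 and 15.4, within counting error. It shares 21.3% of its exon bases with MAP3K15, which had 0.653 and 0.660. DLAT and PDHA1, which work in 1 complex, therefore differed in how far apart their values were between the libraries, and the DLAT to PDHA1 ratio was 1.17 and 1.67.

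Among the regulators of the complex, the activating phosphatase PDP1 had 1.41 and 3.59, a ratio of 2.54 (2.06 to 3.15) from 124 and 328 fragments. The inhibiting kinases were not all on 1 side. PDK1 had 0.763 and 1.67, a ratio of 2.19 (1.83 to 2.63), PDK3 3.58 and 4.23, and PDK2 6.27 and 3.83, a ratio of 0.611 (0.532 to 0.701). Of the exon bases of PDK2, 38.6% lie under the antisense gene SAMD14 (3.63 and 2.97), and whether strand was used in counting is not known here. PDP1 and PDK1 lay under 2-fold on the scale of FPKM + 1, with log2 ratios of 0.93 and 0.60, but over it with a pseudocount of 0.1 (1.29 and 1.04).

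Isoenzyme shares within a step do not depend on the scaling of the libraries. Of 22 genes in 9 such sets, only PDK2 differed by at least 10 percentage points. It held 59.1% of the summed PDK level in the control and 39.3% in the LINC01133 library, where PDK3 led with 43.5%. PDK1 (7.20% and 17.2%) and PDK3 (33.7% in the control) fell just short of that threshold, at 9.99 and 9.77 points. By shares of fragments PDK1 differed by 19.3 points. With the trends on base composition and length described below removed, PDK2 had 62.0%, so the leading kinase was then PDK2 in both. HK2 went from 62.0% to 68.2% of hexokinase, LDHB from 50.8% to 56.4% of lactate dehydrogenase and SLC2A1 from 85.003% to 78.5% of the glucose transporter pair. ENO1 held 98.8% of enolase in both libraries, and ALDOA 93.4% and 93.2% of aldolase.

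**Figure D2:**
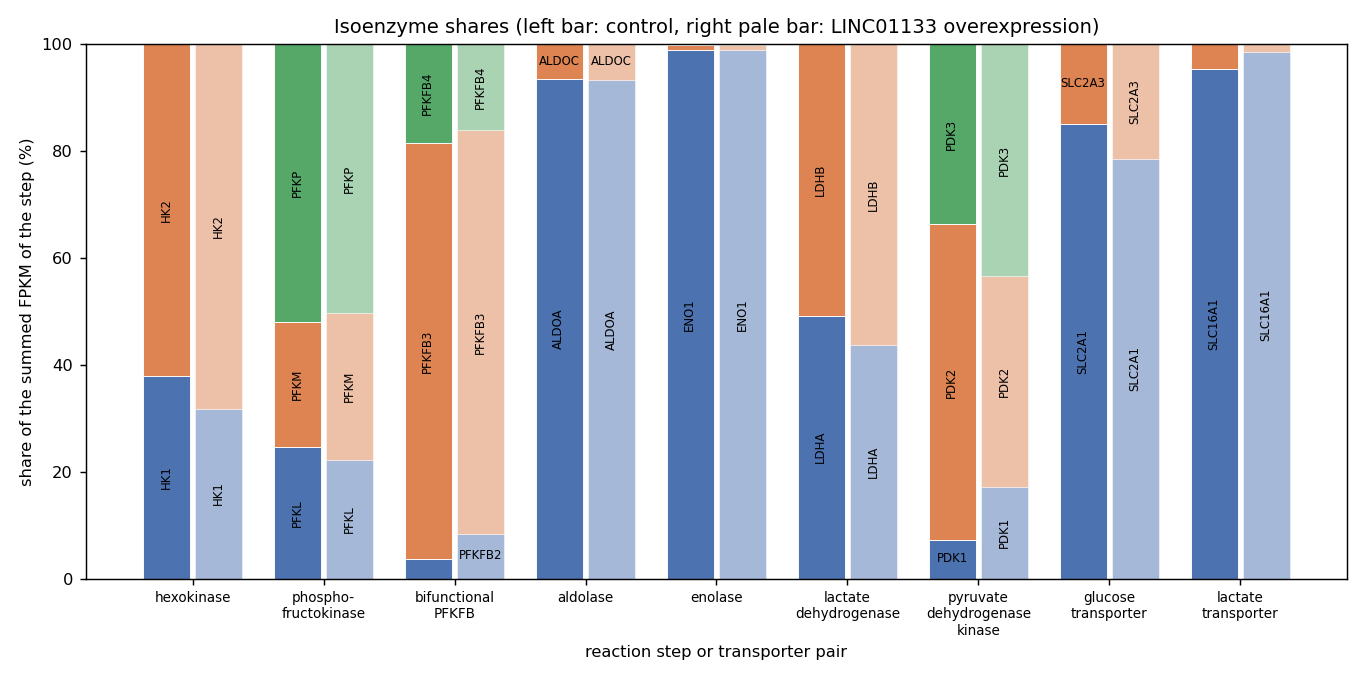
Share of the summed FPKM of each step or transporter pair held by each gene, in percent, for the control (left, dark) and the LINC01133 library (right, pale), 1 library each. PDK2 holds 59.1% and 39.3% of the kinase bar, while the aldolase and enolase bars look alike in both libraries.

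The order of these log2 ratios followed the GC content of the transcripts. The 13 genes with a transcript GC content under 48% (39.8% to 46.6%) had a median log2 ratio of 0.46, and 11 of them were above 0, the exceptions being PGK1 and SLC2A3. The 19 genes at or above 48% (51.2% to 63.6%) had a median of -0.48, and 18 of them were below 0, the exception being HK2. The division at 48% was chosen after the values were seen, in a gap of the list. Over all genes the medians on the same sides were 0.64 and -0.24. Under 48%, 5062 of 5556 genes were above 0 (91.1%, against 84.6% of the 13), and at or above it 4824 of 6357 were below 0. Across the 32 genes, which are not independent replicates and share both libraries, the log2 ratio and GC content had a Spearman correlation of -0.844, and across 11913 genes past the filter it was -0.800.

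Level and GC content together gave a closer comparison for the abundant enzymes. The 7 listed genes that averaged at least 100 FPKM with a GC content of at least 48% (GPI, ALDOA, TPI1, GAPDH, PGAM1, ENO1 and PKM) had a median log2 ratio of -0.50, and the 236 genes of that class overall had -0.50. The summed FPKM of the 7 was 6346 and 4479, a ratio of 0.706, and that of the 236 gave 0.724. The 3 abundant genes under 48% (LDHA, LDHB and PGK1) had a median of 0.15, against 0.14 for the 103 genes of their class.

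**Figure D3:**
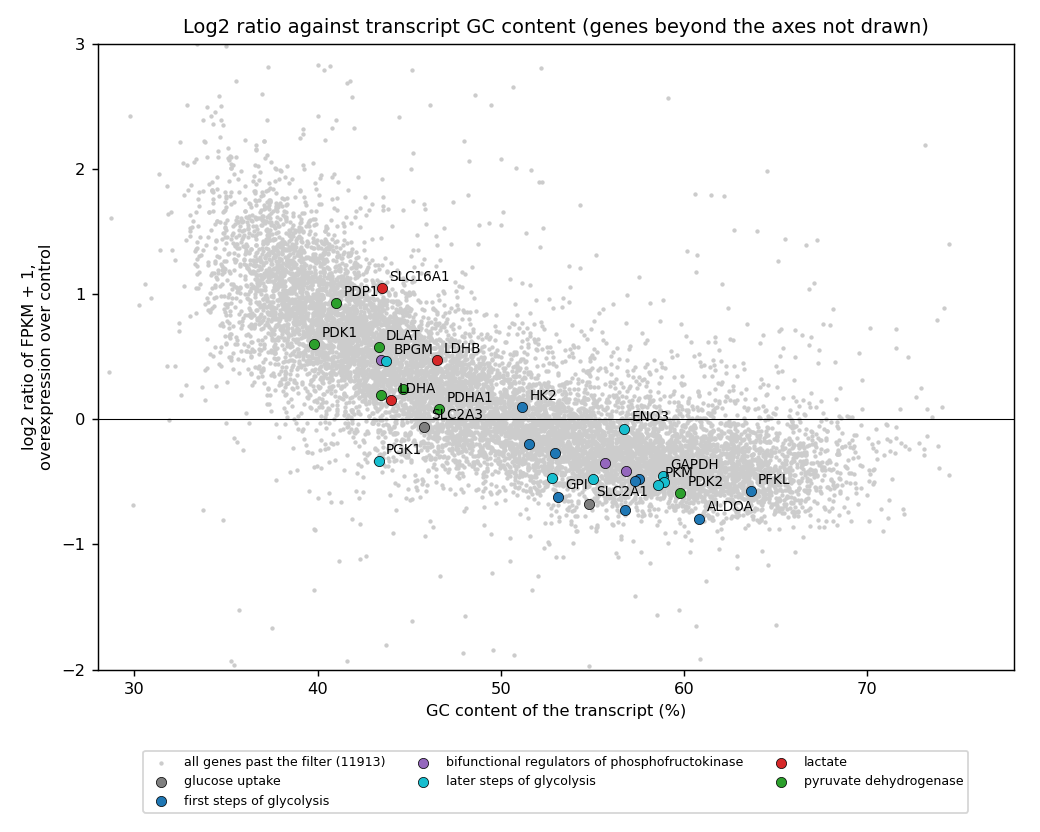
Log2 ratio of FPKM + 1 (overexpression over control, 1 library each) against transcript GC content in percent, for 11913 genes past the filter (grey) and the 32 listed genes (coloured by role). The listed genes run along the grey cloud, from PDP1 at 41.0% and 0.93 to PFKL at 63.6% and -0.57, with PGK1 at 43.3% and -0.33 below it.

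With smooth trends on GC content and transcript length subtracted from all genes, the median of the 32 was -0.05, against 0.10 over all genes. Of the 32, 9 were then above 0 and 23 below, against 7689 and 4224 of all genes, and 0 were 2-fold apart in either direction. SLC16A1 was then the highest of the 32, at 0.61, above 92.96% of all genes past the filter. It was 0.69 with the trend on the GC content of the coding sequence and 0.75 with that on the mean GC content of the gene's coding transcripts, where PDP1 was higher, at 0.79. PGK1 was the lowest, at -0.80, within the lowest 1.33% of all genes. For PGK1 the value hung on which GC content was used, since the coding sequence has 50.3% and the transcript chosen here 43.3%: it was -0.39 by the first and -0.92 by the mean of transcripts. These 2 were the only ones of the 32 at an absolute value of 0.5 or more after subtraction of both trends, 6.25%, against 14.6% of all genes.

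The lactate dehydrogenases differed in this respect. LDHB was at 0.41 with both trends subtracted but at -0.10 with the coding GC content trend and at 0.08 with that on the mean of transcripts. LDHA was at -0.17, -0.31 and -0.14, against 0.15 as deposited. Thus LDHB had the higher value of the pair in each of the 4 calculations, while neither direction held in all of them. HK2 was above 0 in each (0.10 as deposited, then 0.19, 0.40 and 0.13), and with trimmed-mean scaling it was at -0.11.

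Of the lower genes, SLC2A1 (-0.36), GPI (-0.40), ALDOA (-0.25) and ALDOC (-0.29) were still below 0 after subtraction of both trends. GAPDH (0.04), TPI1 (-0.03), ENO1 (-0.03) and PFKM (-0.03) were then close to it. Subtraction kept the median of all genes, 0.10, so a gene on the trends lay near 0.10 and not at 0. Ranked from the lowest up, GAPDH, TPI1, ENO1 and PFKM lay at 41.4%, 31.7%, 31.9% and 31.4% of all genes. The division between genes still below 0 and genes close to it depended on the GC content used. With the coding GC content trend, SLC2A1, GPI, ALDOA and ALDOC were at -0.29, -0.27, -0.40 and -0.44. GAPDH, TPI1, ENO1 and PFKM were then at -0.20, -0.13, -0.35 and -0.22. With the mean GC content trend, GPI was at -0.19 and ENO1 at -0.26. ENO3 turned from -0.08 to 0.39. Among the pyruvate dehydrogenase genes, DLAT was at 0.12, PDP1 at 0.25, PDHB at 0.02 and PDHA1 at -0.06, and PDK1, PDK2 and PDK3 were at -0.24, -0.15 and -0.26. These values depended on the GC content used. With the coding and the mean GC content trends PDP1 was at 0.61 and 0.79, PDK1 at 0.37 and 0.16, DLAT at 0.41 and -0.02, and PDHB at 0.14 and -0.27. PDHA1 was at 0.08 in both, and PDK2 and PDK3 were below 0 in both. With both trends subtracted, 7 of the 32 changed sign (PFKFB2, GAPDH, ENO3, LDHA, PDHA1, PDK1 and PDK3).

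**Figure D4:**
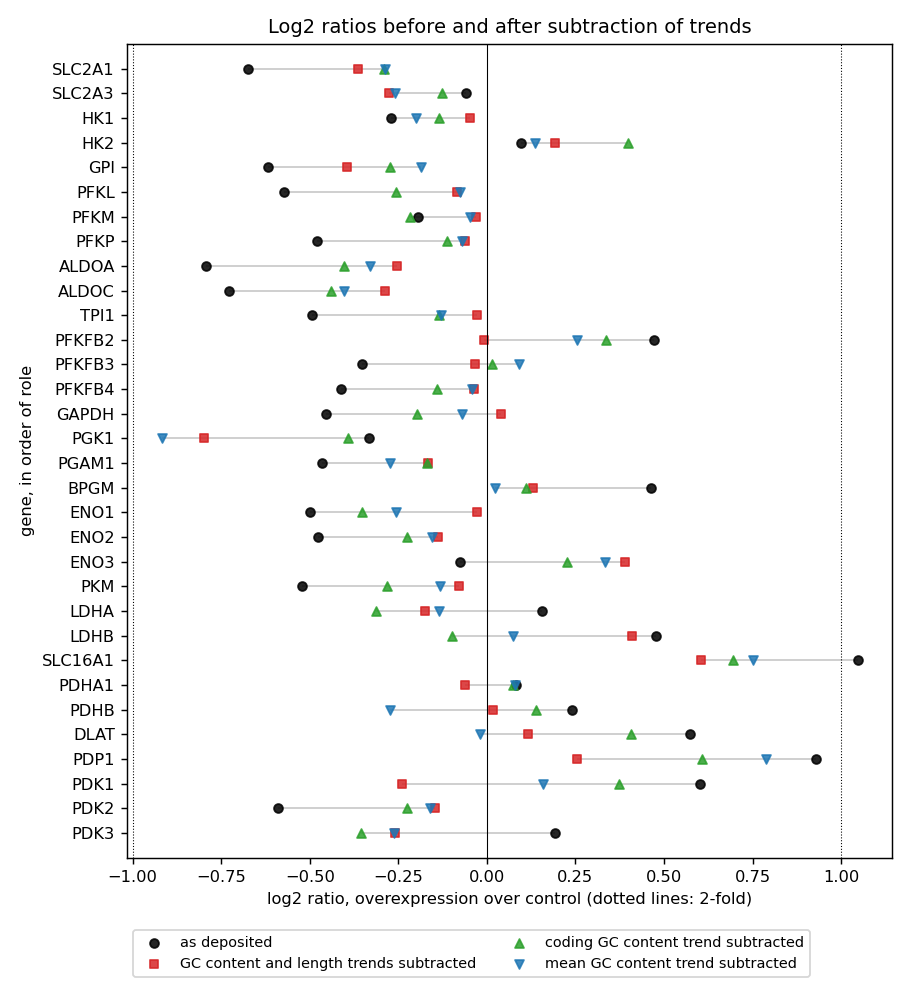
Log2 ratio, overexpression over control, of the 32 genes past the filter, as deposited (black circles) and with trends subtracted on GC content and length (red squares), on coding GC content (green triangles) or on the mean GC content of coding transcripts (blue triangles). SLC16A1 lies to the right in all 4, from 0.61 to 1.05, PGK1 lies to the left in all 4, and most other genes move towards 0.

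Lists of neighbouring pathways were read in the same way. The other genes of the pyruvate dehydrogenase system and the mitochondrial pyruvate carrier were all above 0, 7 of 7, with a median of 0.59. Their median GC content was 43.5%. Of all genes 55.4% were above 0, and of those with a GC content under 48%, 91.1% were, with a median of 0.64. On this list 0 of the 7 reached 2-fold, against 11.9% of all genes upwards and 0.444% downwards. DLD, the shared dehydrogenase subunit, had 9.35 and 18.3, the E3-binding subunit PDHX 9.42 and 15.1, and the second phosphatase PDP2 4.17 and 6.79. With both trends subtracted the median of the list was 0.13. PDK4, an inhibiting kinase, was listed at 0 in both libraries.

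On the list of other glucose and monocarboxylate transporters, 10 passed the filter, of which 2 exceeded 2-fold upwards and 0 downwards, against 11.9% and 0.444% of all genes. SLC16A7 (MCT2), a high-affinity lactate carrier, had 0.589 and 3.03, a ratio of 5.15 (4.25 to 6.28), and SLC2A13, a myo-inositol carrier, 1.03 and 4.34, a ratio of 4.21 (3.55 to 5.03). Both transcripts are AT-rich (GC content of 33.3% and 36.6%), and with both trends subtracted their log2 ratios of 1.34 and 1.40 were -0.05 and 0.29, so that of SLC16A7 changed sign where that of SLC16A1 did not. The other isoenzymes of glycolysis had a median of -0.19 over 8 genes, with 0 at 2-fold in either direction, against the same 11.9% and 0.444%. MINPP1, a phosphatase that also acts on 2,3-bisphosphoglycerate, had 6.07 and 11.2, and PKLR, LDHC, PGK2, HKDC1 and LDHAL6B were listed at 0 in both libraries.

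In the pentose phosphate pathway the median was -0.37, and 8 of 10 genes were below 0, against 5326 of all 11945 past the filter. At least 2-fold higher was 1 of the 10, against 11.9% of all genes, the epimerase RPE (6.397 and 16.8, a ratio of 2.62, 2.32 to 2.97). PGLS, the lactonase, had 34.1 and 20.1, and the synthetase PRPS2 7.43 and 14.7. The 4 measured gluconeogenesis genes were all below 0 (median -0.52), led by the mitochondrial carboxykinase PCK2 with 68.1 and 40.7. Their GC content was 59.0% to 61.6%, and of all genes at or above 48%, 4824 of 6357 were below 0. In serine synthesis, which branches from 3-phosphoglycerate, 4 of 5 were below 0 (median -0.22), against the same 5326 of 11945. PHGDH, its entry enzyme, had 215 and 131. With both trends subtracted the serine list had -0.27, the pentose phosphate list -0.06 and the gluconeogenesis list -0.03.

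Of 23 measured genes of the tricarboxylic acid cycle, 1 was at least 2-fold higher, against 11.9% of all genes. It was the succinate dehydrogenase subunit SDHD (2.04 and 14.9), and the median of the list was -0.06. Glycogen metabolism had a median of 0.10 over 12 genes, of which 1 was at least 2-fold higher, against the same 11.9%. The glycerol phosphate and malate aspartate shuttles had 0.27 over 7 genes, with 1 at least 2-fold higher, again against 11.9% of all genes. It was the mitochondrial dehydrogenase GPD2 (3.88 and 10.3). These 3 medians were -0.04, -0.0039 and -0.05 with both trends subtracted. The log2 ratio of SDHD was 2.39 as deposited and 1.83 with both trends subtracted, and that of GPD2 was 1.21 and 0.43. SDHD has no counting interval, because its values were not whole numbers of fragments.

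Of 14 measured regulators of glycolytic genes and glucose uptake, 2 were at least 2-fold higher, against 11.9% of all genes. HIF1A, the oxygen-regulated transcription factor, had 9.47 and 22.5, a ratio of 2.38 (2.19 to 2.59), and ARRDC4, an arrestin that lowers glucose uptake, 4.06 and 9.76, a ratio of 2.40 (2.08 to 2.79). EGLN1, the prolyl hydroxylase that marks HIF1A protein for degradation, had 4.05 and 8.05. With both trends subtracted HIF1A, whose transcript has a GC content of 36.4%, went from 1.17 to 0.09, and ARRDC4, at 43.4%, from 1.09 to 0.64.

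**Figure D5:**
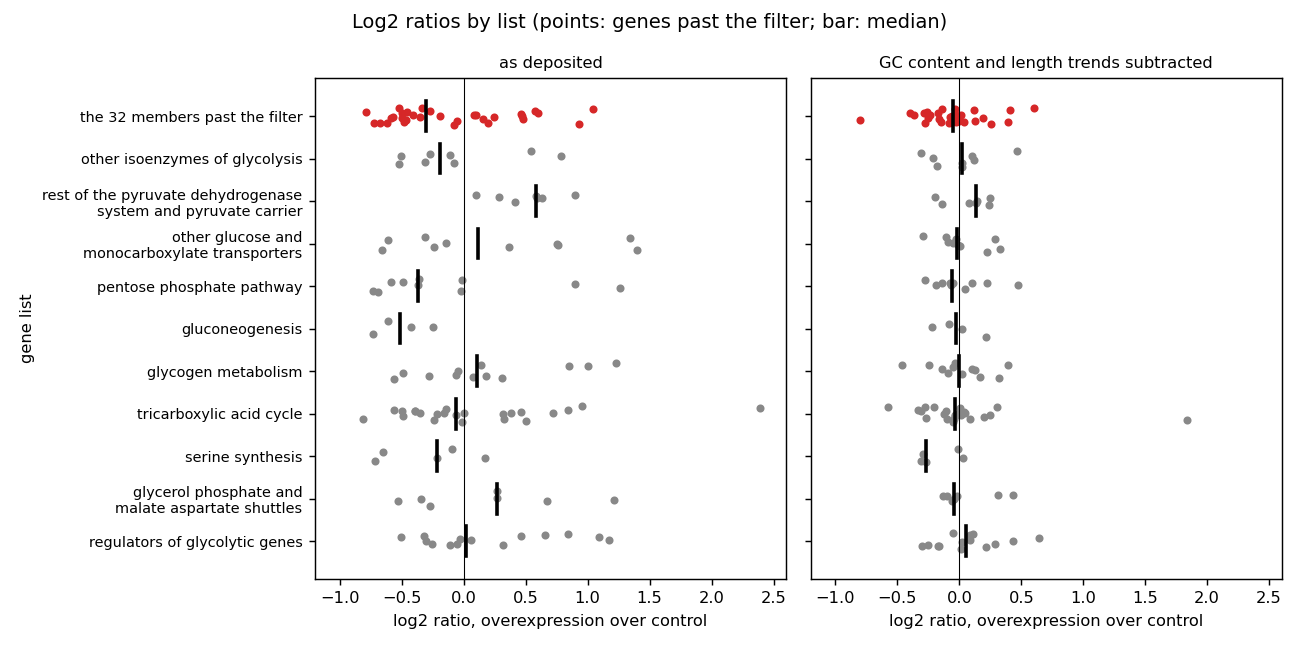
Log2 ratios of genes past the filter in the 32 listed genes (red) and in 10 lists of neighbouring pathways (grey), as deposited on the left and with GC content and length trends subtracted on the right; black bars are medians. The medians spread from -0.52 for gluconeogenesis to 0.59 for the rest of the pyruvate dehydrogenase system on the left and lie between -0.27 and 0.13 on the right.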

How the data were processed

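The authors deposited 1 value per gene for each of 2 HGC27 libraries. The labels do not name the unit; the deposited values were read as FPKM because, times merged exon length in GENCODE 29, nearly all are multiples of a single library-wide step (within 0.02 of a fragment for 94.5% and 94.4% of genes). That step gave depth and fragments. Per the submitters' processing notes, HISAT2 2.1.0, Bowtie2 2.2.3, HTSeq 0.6.0 and GRCh38 were used; the role of each, the annotation release, strand setting and treatment of overlapping genes are not given in the sources used here.

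Computed here (Python 3.11.15, SciPy 1.17.1, statsmodels 0.14.6): log2 ratios of FPKM + 1, a filter at a mean FPKM of 1, and exact intervals (Clopper-Pearson on the share of fragments). With 1 library per group no test across genes was possible. GC content and length were those of a gene's longest coding transcript that has an annotated 3′ UTR, failing that of its longest transcript, for 99.7% of genes past the filter. Trends were lowess fits (span 0.3), subtracted keeping the median; the calculations were tested on simulated data. Alternatives were other scalings, filters, pseudocounts and thresholds. Named were every listed gene, LINC01133 and up to 3 genes per neighbouring list with the largest absolute log2 ratio past the filter; genes at 0, marker genes and close copies were named after their values were seen. 1 gene that this rule names is not reported here. The genes and lists were chosen with earlier results of these data known. Upstream sequences are from RefSeq (GRCh38.p14).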

Additional observations from a re-analysis of the deposited data

How the results depend on the processing

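No paired analysis was possible because only 1 library per group was analysed. Other scalings lowered the log2 ratio of FPKM, before 1 is added, by 0.21 (median of ratios and trimmed mean of M values) or 0.25 (upper quartile), and took the median of all genes to -0.07, -0.07 and -0.10. HK2, LDHA and PDHA1 changed sign under each of these 3, and PDK3 by upper quartile. Trends on coding or mean GC content and leaving out genes with shared exons were chosen after the data were seen. For each shift given here the cause was not tested. Depth limits the lowest genes most, such as SLC16A3 with 84 fragments.

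The 1 gene at least 2-fold higher became 0 by the 3 other scalings, at 4-fold and with any of the 4 trend subtractions, and 3 with a pseudocount of 0.1, a prior of 10 fragments or at 1.5-fold. The 0 at least 2-fold lower became 1 (ALDOA) by the trimmed mean of M values and by upper quartile, and 5 at 1.5-fold. The median of -0.30 was -0.50 by median of ratios, -0.51 by the trimmed mean of M values, -0.54 by upper quartile, -0.31 with a pseudocount of 0.1 or a prior of 10 fragments, -0.46 at a mean FPKM of at least 5, -0.27 without a filter, -0.12 as a mean and -0.23 without 6 genes sharing at least 10% of exon bases. It was -0.054 with GC content and length trends, -0.075 with the GC content trend alone, -0.14 with coding GC content and -0.10 with mean GC content. The 1 isoenzyme share apart by 10 points became 2 by shares of fragments and 0 with trends removed, where the lactate transporter pair had no value. With trends removed LDHB fell just short, at 9.97 points, against 5.55 as deposited. SLC16A7 changed sign, from 1.34 to -0.054, with both trends subtracted, and was at 0.015 with the GC content trend alone. It was not the only gene to do so, since 7 of the 32 listed genes also changed sign with both trends subtracted. Of the other values of single genes under alternatives, 358 moved beyond their counting interval or had none, some with a change of sign, and 154 did not.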
